A study of Rattus norvegicus with 8 samples.

Results

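Voltage-gated sodium channels, voltage-gated calcium channels, HCN channels and TRP channels were followed across 8 rat hypothalami. They were chosen by gene name, as every non-control spot named Scn with a number and a or b, Cacna, Cacnb or Cacng, Hcn with a number, or Trpc, Trpm or Trpv with a number. This gave 60 of the 19204 named genes on the array, on 76 of its 30367 probes and 112 of its 42877 non-control spots. The genes were 9 sodium channel alpha subunits, 4 sodium channel beta subunits, 8 Cacna1 pores, 4 Cacna2d, 4 Cacnb and 7 Cacng auxiliary subunits, 4 Hcn genes, 8 Trpc, 6 Trpm and 6 Trpv genes. Trpc4ap is counted among the Trpc genes by its name, although it encodes a protein associated with TRPC4 and not a channel.

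Total RNA came from hypothalami of Sprague Dawley rats aged 3 to 4 months, 4 females in estrus and 4 males, with no treatment named in the labels. Each of 4 two-colour arrays of 60-base probes held 1 female and 1 male: the females were labelled with Cy3 on arrays 1 and 3 and with Cy5 on arrays 2 and 4, and the males with the other dye. Animals are named here by sex and array, so female 2 and male 2 shared array 2. Because every female was in estrus, sex and stage of the cycle cannot be told apart, and in bulk tissue fewer cells of a type and less RNA per cell cannot be told apart.

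Sodium channel alpha subunits carry the fast inward current of the action potential, and beta subunits tune its gating and place it in the membrane. Cacna1 pores pass calcium on depolarization, for transmitter release, pacemaking and gene regulation, and the Cacna2d, Cacnb and Cacng subunits set their traffic and gating, although several Cacng proteins serve AMPA-type glutamate receptors instead. HCN channels open on hyperpolarization and are modulated by cyclic AMP, while TRP channels are cation channels opened by lipids, heat, ligands or receptors. In the hypothalamus these families are known for the firing of neuroendocrine neurons, and TRPC channels for the depolarization of neurons by leptin and kisspeptin.

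The probes whose results the comparisons turn on are shown first, as deposited, in the sense of the transcript, with positions on the rn4 build given in the array files. They were picked among the members with large differences between single animals, or with a pair of probes that differ, and each has at least 1 reading frame with no stop triplet before its end. Capitals mark a stop triplet that closes the only such frame, which is found at the end of 2 of the 6 probes.
Scn7a, dimmer probe, chr3:48634739-48634798, minus strand: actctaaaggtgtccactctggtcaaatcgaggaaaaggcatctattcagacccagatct
Cacna2d3, chr16:4238455-4247999, minus strand: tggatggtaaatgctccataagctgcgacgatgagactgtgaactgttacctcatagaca
Cacng8, chr1:64069079-64071811, minus strand: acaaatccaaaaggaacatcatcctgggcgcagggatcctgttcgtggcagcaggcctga
Hcn3, chr2:181224326-181224385, minus strand: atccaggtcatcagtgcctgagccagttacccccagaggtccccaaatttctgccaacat
Trpc4, chr2:143485467-143485526, plus strand: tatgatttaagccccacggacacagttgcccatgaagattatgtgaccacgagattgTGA
Trpc6, chr8:5577478-5577536, plus strand: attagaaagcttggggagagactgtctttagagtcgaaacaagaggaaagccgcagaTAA
The Cacna2d3 and Cacng8 probes span 9545 and 2733 bases of the genome, so each lies across an exon junction. Of the 76 member probes, 63 shared no run of 15 bases with a probe of another gene, and the longest shared run was 18 bases, between the dimmer Cacna1c probe and Ndufa13. GC content ran from 35.0% to 61.7% with a median of 45%.

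Signal over background set what could be measured. Per sample, the median spot exceeded its background by 502 to 530 units in the Cy3 channels and by 148 to 272 in the Cy5 channels. Of all spots, 84.9% to 87.0% in Cy3 and 77.6% to 80.2% in Cy5 were well above background, and no member spot was saturated. Among the channels, 48 of 60 genes were well above background at their brightest probe in all 8 samples, 9 in some and 3 in none. Those 3 were Cacna2d4, the Cacna2d subunit best known from the retina, Trpv3, a heat channel of skin, and Trpv5, an epithelial calcium channel of the kidney. Among the others too low for a test were Scn4a and Cacna1f, the pores of skeletal muscle and of retinal photoreceptors, and Cacng5, Cacng6, Trpc5, Trpm1 and Trpv6. The remaining 49 genes were tested for sex, each at its brightest probe, and they are not all members, since a gene passed only where it was well above background in all 4 animals of at least 1 sex.

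Male 2 stood apart from the other animals in its region markers. The summed level of 22 hypothalamic marker genes (neuropeptides and transcription factors such as Avp, Oxt, Pmch, Hcrt and Nkx2-1) was 49229 in male 2, against 283995 to 327866 in the other males and 284885 to 356396 in the females. Male 2 was the lowest of all 8 samples for 20 of the 22. For 14 markers of cortex, hippocampus and striatum the sum was 69326 in male 2, 36114 to 37963 in the other males and 38994 to 49849 in the females, and 10 of the 14 were highest in male 2. The exceptions included Drd2, Rgs9 and Penk, which mark striatum and were lowest in male 2, at log2 levels of 10.29, 10.56 and 12.68. Markers of striatum went both ways, since Adora2a and Ppp1r1b were highest in male 2, at 8.86 and 13.35. The log2 level of Neurod6, a transcription factor of cortical and hippocampal excitatory neurons, was 13.90 in male 2 and 11.94 in female 2, and 7.25 to 9.05 in the others. Every tested gene of both marker lists was well above background in at least some samples. Fitted sex ratios of single channels are therefore followed by the value without array 2 where one could be fitted. That fit leaves array 4 as the only array with the female in Cy5 and 1 residual degree of freedom. Array 4 then weighs as much as arrays 1 and 3 together, and small standard errors there are no sign of greater precision. Male 4 stood apart in another list, where 8 ependyma and choroid plexus markers summed to 100559, against 11216 to 19437 in the other animals. A sum weighs the brightest genes most. The mean log2 level of these 8, with the dye effect removed, was 10.26 in male 4 and 9.33 to 9.86 in the others. Sums of 8 pituitary markers also spread widely, from 11831 in male 2 to 158883 in female 2. The part of these marker differences in the channel results was not tested.

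**Figure D1:**
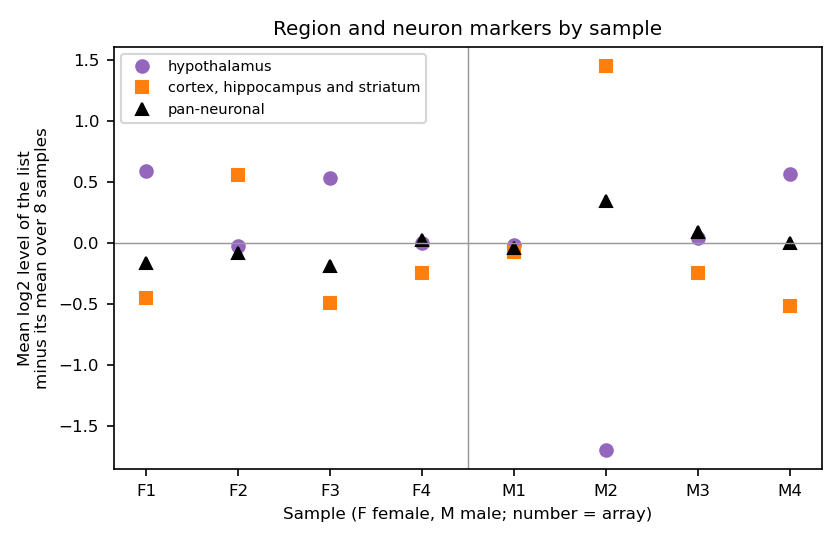
Mean log2 level of 3 marker lists in each of the 8 animals, with the dye effect removed, less the list's mean over the 8 animals (vertical axis, log2 units). Females (F) and males (M) are named by array on the horizontal axis. Male 2 lies lowest for hypothalamic markers and highest for markers of cortex, hippocampus and striatum, where female 2 lies next.

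No channel gene passed the test for a sex difference. In limma, 0 of 49 had an adjusted p under 0.05, against 0.0% of the 14603 genes tested on the whole array, and 0 of 49 had an unadjusted p under 0.05, against 8.52% of all genes. The lowest unadjusted p among the channels was 0.0693, for Trpv2, and the lowest adjusted p was 0.555. The fitted log2 ratio of female over male was above 0 for 27 genes (56.2% of all genes) and below 0 for 22, with a median of 0.02, the same as the median of 0.02 over all genes. Female and male levels did not overlap for 0 of 49 channels, against 2.62% of all genes. These levels include the dye, which can make the sexes overlap. The median size of the dye effect was 0.29 over channels and 0.18 over all genes, so these shares are not alike. For levels with the dye effect removed no such share was computed. At the brightest probe the log2 ratio was above 0 on all 4 arrays for Scn9a alone, where 5.01% of all genes were. It was below 0 on all 4 for Cacnb1, Cacng7 and Cacng8, where 5.5% of all genes were. A fitted ratio that did not pass is given below as a value with its standard error, and p-values measure the spread of 4 arrays.

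**Figure D2:**
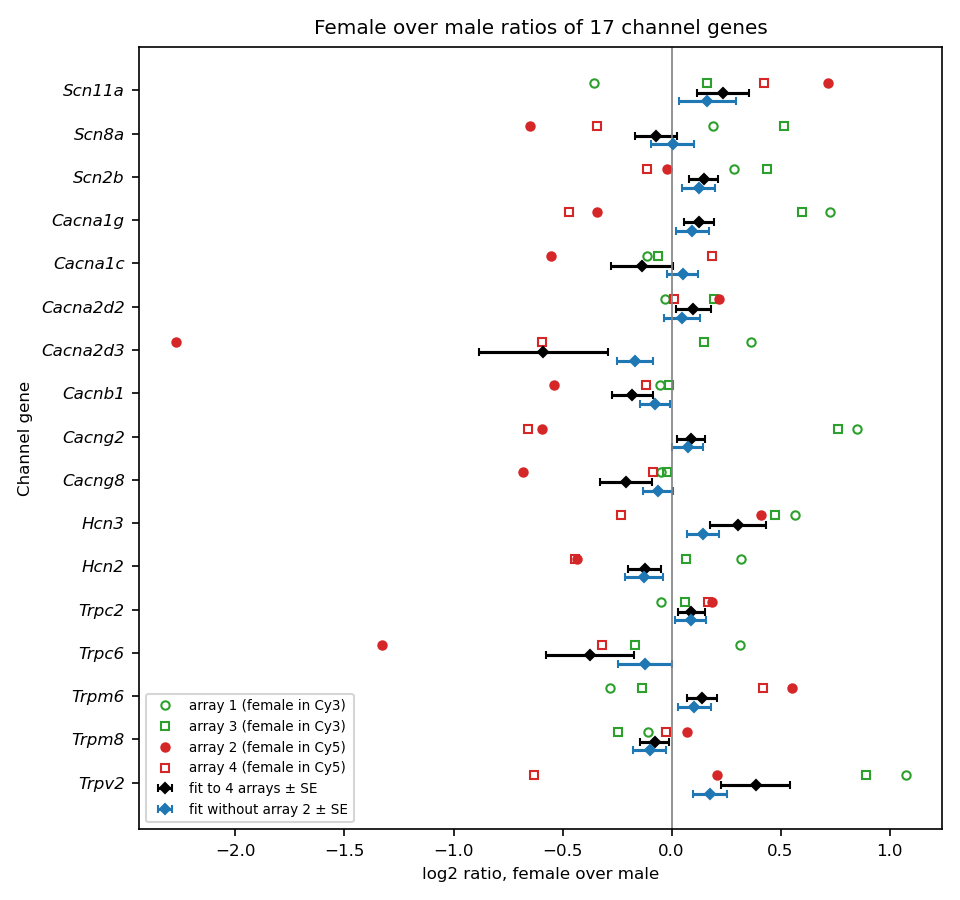
Log2 ratio of female over male on each array (points; green for the female in Cy3, red for the female in Cy5, filled for array 2) and the fitted ratio with its standard error with all 4 arrays (black) and without array 2 (blue) for 17 channel genes with the smallest p in each direction in each subfamily. The array 2 points of Cacna2d3 and Trpc6 lie at -2.27 and -1.33, and without that array no fitted ratio is farther than 0.18 from 0.

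Among the sodium channel alpha subunits, 8 of 9 genes were tested. Scn11a, the pore of the persistent NaV1.9 current best known from nociceptors, had log2 levels of 7.73, 8.02, 8.08 and 8.28 in females 1 to 4 and 8.08, 7.31, 7.92 and 7.86 in males 1 to 4. The fitted log2 ratio was 0.24 ± 0.12 (SE, 4 arrays; limma adjusted p = 0.555), and 0.16 ± 0.13 without array 2. Male 2 was the lowest sample and female 4 the highest, and the sexes overlapped.

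Scn8a is the NaV1.6 pore of axon initial segments and nodes. Its log2 levels were 7.31, 7.60, 7.50 and 7.20 in females 1 to 4 and 7.12, 8.25, 6.98 and 7.54 in males 1 to 4. Male 2 was highest and male 3 lowest, so the males enclosed all the females in levels that include the dye. With the dye effect removed, female 1 was lowest, at 7.10, and male 2 highest, at 8.04. The fit gave a ratio of -0.07 ± 0.10 (adjusted p = 0.762, limma) and 0.01 ± 0.10 without array 2. With the scanner's log ratio it was -0.36.

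Scn9a, the NaV1.7 pore that amplifies small depolarizations and is found in hypothalamic neurosecretory neurons as well as in nociceptors, had log2 levels of 9.48, 9.34, 9.39 and 9.42 in females and 9.39, 7.40, 9.24 and 9.24 in males 1 to 4. The female was above the male on every array, but by 0.09, 0.15 and 0.19 on arrays 1, 3 and 4 and by 1.94 on array 2. Male 2 lay far below the other 7 samples, males 3 and 4 just below the females, and male 1 within their range. The fitted ratio of 0.59 ± 0.31 (limma unadjusted p = 0.122) was 0.15 ± 0.07 without array 2.

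Scn7a, which encodes the sodium sensor Nax of the brain's salt-sensing organs, was measured by a pair of probes whose fitted ratios differed in sign with all 4 arrays. Scn7a and Scn9a were singled out after their values were seen. At the brighter Scn7a probe the log2 level was 7.41 in male 2 and 9.32 to 10.33 in the other 7 animals, and the fitted ratio was 0.35 ± 0.36, which turned to -0.16 ± 0.08 without array 2. At the dimmer probe male 2 was again the lowest sample, at 6.74, but the fitted ratio was -0.28 ± 0.12 (limma unadjusted p = 0.0682) and -0.40 without array 2, so that both probes were then below 0. Female 2 was nearly as low at the dimmer probe, at 6.91, while the animals of the other arrays had 7.35 to 8.05. With the dye effect removed, female 2 was lowest there, at 6.80, and male 2 had 6.85. The ratio on array 2 was 1.91 at the brighter probe and 0.18 at the dimmer. A level of male 2 far below that of female 2 was thus measured at the brighter probe only. Among other alpha subunits, Scn1a, Scn3a and Scn10a had fitted ratios of 0.11, 0.25 and 0.04, which were -0.09, 0.05 and -0.03 without array 2.

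The 4 sodium channel beta subunits, immunoglobulin-like membrane proteins that modulate the pores, were all tested. Scn2b had log2 levels of 7.18, 7.12, 7.26 and 6.99 in females and 6.89, 7.14, 6.82 and 7.10 in males 1 to 4. In these levels, which include the dye, male 3 was lowest and female 3 highest, with the other animals mixed between them. With the fitted dye effect removed, the females lay at 7.07 to 7.22 and the males at 6.93 to 7.03. How many of all genes separate in that way was not computed. The fitted log2 ratio of Scn2b came to 0.15 ± 0.07 (adjusted p = 0.555, limma) and 0.12 ± 0.08 without array 2. Over the alternatives it ran from 0.11 to 0.40, the highest with the scanner's log ratio.

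Scn3b and Scn4b were singled out after their values were seen. The log2 level of Scn3b was 16.80 in male 2 and 14.65 to 14.89 in the other 7 animals, a narrow range. In the fit the ratio was -0.47 ± 0.36 and 0.03 ± 0.11 without array 2. Scn4b, the beta subunit associated with resurgent current, stood at 11.91 in male 2 and 9.65 to 10.47 elsewhere, and its ratio went from -0.22 ± 0.24 to 0.12 ± 0.09 without array 2.

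**Figure D3:**
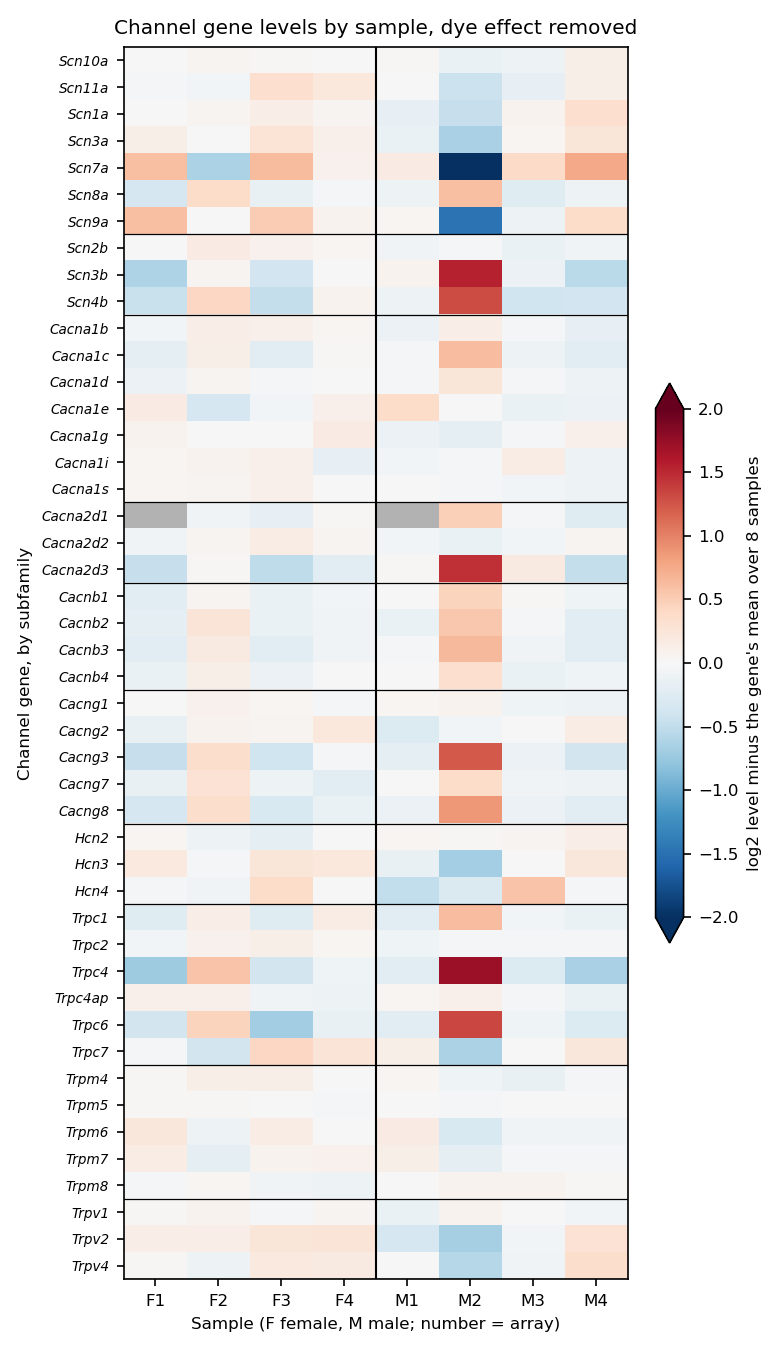
Log2 level of 46 tested channel genes in females (F1 to F4) and males (M1 to M4), with the dye effect removed and each gene's mean over the 8 samples subtracted (colour scale, log2 units, grey for a value left out as an outlier spot). The column of male 2 holds the strongest colours, in both directions, and most other columns are pale.

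Of the 8 Cacna1 genes, which encode the calcium-conducting pore, 7 were tested and 4 fitted ratios were above 0, with a median of 0.02 and a range of -0.13 to 0.13. Cacna1g, the T-type pore CaV3.1 of burst firing, had log2 levels of 11.14, 10.53, 11.08 and 10.70 in females and 10.42, 10.88, 10.49 and 11.17 in males 1 to 4. The samples in Cy3 were the 4 highest and those in Cy5 the 4 lowest, in both sexes. The fitted ratio was 0.13 ± 0.07 (adjusted p = 0.564, limma) and 0.10 ± 0.07 without array 2, and the gene's second probe gave 0.11 ± 0.06 and 0.10 without array 2.

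Cacna1c, the L-type pore CaV1.2 that couples activity to transcription, had log2 levels of 9.18, 9.46, 9.18 and 9.35 in females and 9.30, 10.01, 9.24 and 9.17 in males 1 to 4. Male 2 was highest, and the other 7 samples lay between 9.17 and 9.46 with the sexes mixed. The fit gave a ratio of -0.13 ± 0.14 (adjusted p = 0.697, limma), which turned to 0.05 ± 0.07 without array 2. The dimmer Cacna1c probe did not turn, with -0.05 and with -0.07 without array 2.

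The other tested pores had small fitted ratios: 0.10 for Cacna1b (N-type), -0.04 for Cacna1d (L-type CaV1.3), -0.06 for Cacna1e (R-type), 0.02 for Cacna1i (T-type CaV3.3) and 0.10 for Cacna1s (the skeletal muscle pore). Without array 2 these were, in the same order, 0.15, 0.03, 0.08, -0.02 and 0.11, so that the sign turned for Cacna1d, Cacna1e and Cacna1i. The Cacna1i probes share 43 of their 60 bases and are not independent; their ratios were 0.02 and 0.12, and -0.02 and 0.05 without array 2. Spots of 1 probe also varied: 9 spots of the Cacna1b probe on array 2 had a mean log2 ratio of -0.18 with an SD of 0.27. The 10 spots of the Cacna1c probe on that array had a mean of -0.55 with an SD of 0.18.

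Of the Cacna2d genes, whose products bind gabapentin in the case of the first members and carry pores to the membrane, 3 of 4 were tested. Cacna2d3 had log2 levels of 9.75, 9.39, 9.70 and 9.14 in females and 9.39, 11.67, 9.55 and 9.73 in males 1 to 4. Male 2 lay far above every other animal, and the other males fell within the range of the females. Fitted over the arrays, the log2 ratio was -0.59 ± 0.30 (adjusted p = 0.555, limma) and -0.17 ± 0.08 without array 2.

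Cacna2d2 had log2 levels of 7.09, 7.24, 7.31 and 7.23 in females and 7.12, 7.02, 7.12 and 7.21 in males 1 to 4. Male 2 was lowest and female 3 highest, within a range that was narrow under this processing. The fitted log2 ratio of Cacna2d2 came to 0.10 ± 0.08 (adjusted p = 0.628, limma) and 0.05 ± 0.08 without array 2. Over the alternatives in processing the ratio ran from 0.04 to 0.36, the highest with the scanner's log ratio. Cacna2d1 was left out on array 1 as an outlier spot, and on the other 3 arrays its ratio was -0.14 ± 0.21, with no fit possible without array 2.

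All 4 Cacnb genes, the cytoplasmic beta subunits that bring pores to the membrane, were tested. At their brightest probes the fitted ratios were below 0 with all 4 arrays, from -0.18 to -0.06. Cacnb1 had log2 levels of 12.11, 12.23, 12.19 and 12.12 in females and 12.16, 12.77, 12.20 and 12.24 in males 1 to 4. At this brighter probe the ratios were -0.05, -0.54, -0.01 and -0.12 on arrays 1 to 4. The female was thus lower on each, by little except on array 2. In the fit the ratio was -0.18 ± 0.09 (adjusted p = 0.558, limma) and -0.08 ± 0.07 without array 2. The dimmer Cacnb1 probe had ratios of -0.28, -0.75, -0.20 and 0.26, so that the female was higher on array 4. Its fitted ratio was -0.24 ± 0.19, and 0.01 without array 2. Cacnb2, Cacnb3 and Cacnb4 had ratios of -0.08, -0.16 and -0.06, and male 2 was the highest sample for all 4 genes at their brightest probes. Without array 2 those 3 ratios were 0.03, -0.0022 and 0.02, and the median over the 4 genes went from -0.12 to 0.01.

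Of the 7 Cacng genes, 5 were tested. Cacng2 (stargazin, an AMPA receptor subunit) had log2 levels of 12.88, 12.37, 13.08 and 12.51 in females and 12.03, 12.97, 12.31 and 13.17 in males 1 to 4. The 4 samples in Cy3 were again the highest, with no order by sex. The fitted ratio was 0.09 ± 0.06 (adjusted p = 0.603, limma) and 0.07 ± 0.07 without array 2.

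Cacng8, another AMPA receptor subunit, abundant in hippocampus and cortex, had log2 levels of 7.62, 8.15, 7.66 and 7.66 in females and 7.67, 8.83, 7.68 and 7.75 in males 1 to 4. Both animals of array 2 were above the others, which lay between 7.62 and 7.75. The fit gave a ratio of -0.21 ± 0.12 (adjusted p = 0.569, limma) and -0.06 ± 0.07 without array 2. Cacng3 stood at 12.21 in male 2, 11.05 in female 2 and 10.49 to 10.65 elsewhere, with a ratio of -0.27 ± 0.22 and 0.03 ± 0.07 without array 2. Cacng7 and Cacng1 had ratios of -0.09 and 0.04, and of -0.09 and 0.04 without array 2.

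The 4 Hcn genes were all tested. Hcn3, a subunit with a weak response to cyclic AMP, had log2 levels of 9.61, 9.15, 9.66 and 9.41 in females and 9.05, 8.74, 9.18 and 9.64 in males 1 to 4. Females were higher on arrays 1 to 3, by 0.56, 0.41 and 0.48, and lower on array 4, by a ratio of -0.23. Fitted over the arrays, the log2 ratio was 0.30 ± 0.13 (limma unadjusted p = 0.0701, adjusted p = 0.555) and 0.14 ± 0.07 without array 2. Male 2 was the lowest sample, and male 4 lay among the highest females.

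Hcn2, a main subunit of subcortical neurons with a strong cyclic AMP response, had log2 levels of 8.29, 7.83, 8.05 and 7.93 in females and 7.97, 8.27, 7.98 and 8.37 in males 1 to 4. Male 4 was highest and female 2 lowest, and the sexes overlapped. Its fitted log2 ratio came to -0.12 ± 0.07 (adjusted p = 0.576, limma) and -0.13 ± 0.09 without array 2, so that it did not rest on array 2. Over the alternatives the Hcn2 ratio ran from -0.06 to -0.47, the latter with the authors' value table. Hcn4, the slow pacemaker subunit of heart and thalamus, had a ratio of 0.12 ± 0.13 (0.07 ± 0.16 without array 2) and was highest in male 3, at 9.90.

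Of the 8 Trpc genes, 6 were tested, with 3 ratios on each side of 0. Trpc2, the pheromone transduction channel of the rodent vomeronasal organ, had log2 levels of 10.08, 10.30, 10.25 and 10.26 in females and 10.13, 10.11, 10.19 and 10.09 in males 1 to 4. Females 2, 3 and 4 were the 3 highest samples and female 1 the lowest. In the fit the ratio was 0.09 ± 0.06 (adjusted p = 0.603, limma) and 0.09 ± 0.07 without array 2.

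Trpc6, a channel opened by diacylglycerol, had log2 levels of 8.43, 8.79, 8.09 and 8.20 in females and 8.12, 10.12, 8.26 and 8.52 in males 1 to 4. Male 2 was highest and female 2 second. The fitted ratio was -0.38 ± 0.20 (adjusted p = 0.564, limma) and -0.12 ± 0.12 without array 2. Trpc4, a receptor-operated channel singled out after its values were seen, stood at 12.12 in male 2 and 9.25 to 10.10 elsewhere, and its ratio of -0.29 ± 0.31 turned to 0.14 ± 0.11 without array 2. Trpc1 and Trpc7 had ratios of -0.10 and 0.14, and Trpc4ap one of 0.01. Without array 2 these were 0.08, 0.08 and 0.02, so that the sign turned for Trpc1 at its brighter probe. The dimmer Trpc1 probe did not turn, with -0.18 and with -0.12 without array 2.

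Of the 6 Trpm genes, 5 were tested, with ratios from -0.08 to 0.14. Trpm6, a magnesium channel fused to a kinase, had log2 levels of 7.99, 8.01, 7.91 and 8.11 in females and 8.27, 7.46, 8.05 and 7.70 in males 1 to 4. The females lay close together inside the wider range of the males in levels that include the dye. With the dye effect removed, female 1 was highest, at 8.16, and the males lay between 7.63 and 8.10. The fit gave a ratio of 0.14 ± 0.07 (adjusted p = 0.555, limma) and 0.10 ± 0.08 without array 2.

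Trpm8, the cold and menthol receptor, had log2 levels of 6.82, 6.97, 6.77 and 6.84 in females and 6.93, 6.91, 7.02 and 6.87 in males 1 to 4. Its fitted ratio was -0.08 ± 0.07 (adjusted p = 0.648, limma) and -0.10 ± 0.07 without array 2. The levels of both sexes overlapped. Trpm4, Trpm5 and Trpm7 had ratios of 0.12, 0.01 and 0.06, and of 0.09, -0.0088 and 0.09 without array 2.

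The 3 tested Trpv genes had ratios above 0 with all 4 arrays. Trpv2, a channel of oxytocin and vasopressin neurons among other cells, had log2 levels of 11.23, 10.64, 11.34 and 10.75 in females and 10.16, 10.43, 10.45 and 11.39 in males 1 to 4. Females were higher on arrays 1 to 3, by 1.07, 0.21 and 0.89, and lower on array 4, where the ratio was -0.63. Male 4 was the highest sample of all, so the sexes overlapped. Fitted over the arrays, the log2 ratio was 0.38 ± 0.16 (limma unadjusted p = 0.0693, adjusted p = 0.555) and 0.18 ± 0.08 without array 2. Trpv1, the capsaicin receptor, and Trpv4, an osmosensitive channel, had ratios of 0.05 and 0.15, and of 0.08 and -0.0061 without array 2.

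How far the animals of one sex differed could be read directly for the pairs that carried the same dye, a comparison chosen after the values were seen and made with no test, since each side is 1 animal. Between male 2 and male 4, 9 of 49 channels (18.4%, against 3.91% of all genes) were at least 2-fold higher in male 2, among them Scn3b, Scn4b, Cacna2d3, Cacng3, Cacng8, Trpc4 and Trpc6. Another 3 (6.12%, against 3.75%) were at least 2-fold lower, among them Scn7a and Scn9a. On the high side the log2 difference was 1.08 for Cacng8 and 2.36 for Trpc4. On the low side it was -1.84 for Scn9a and -2.75 for Scn7a. These counts are at the brightest probe, where no Cacna1, Cacnb, Trpm or Trpv gene was among them. The dimmer Cacnb1 probe was higher in male 2 than in male 4, by 1.22.

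In the other same-dye pairs, 0 of 49 channels differed by 2-fold in either direction between females 1 and 3 (0.603% and 0.294% of all genes higher and lower) and between females 2 and 4 (0.527% and 0.336%). Between males 1 and 3, Hcn4 alone was 2-fold lower in male 1, by a log2 difference of -1.07, against 0.404% of all genes. Male 2 was the highest of the 8 samples for 23 of 49 channels (46.9%, against 25.3% of all genes) and the lowest for 13 (26.5%, against 25.2%). Female 2 exceeded female 4 in Trpc4 and Trpc6 by 0.65 and 0.59, less than male 2 exceeded male 4, by 2.36 and 1.60.

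**Figure D4:**
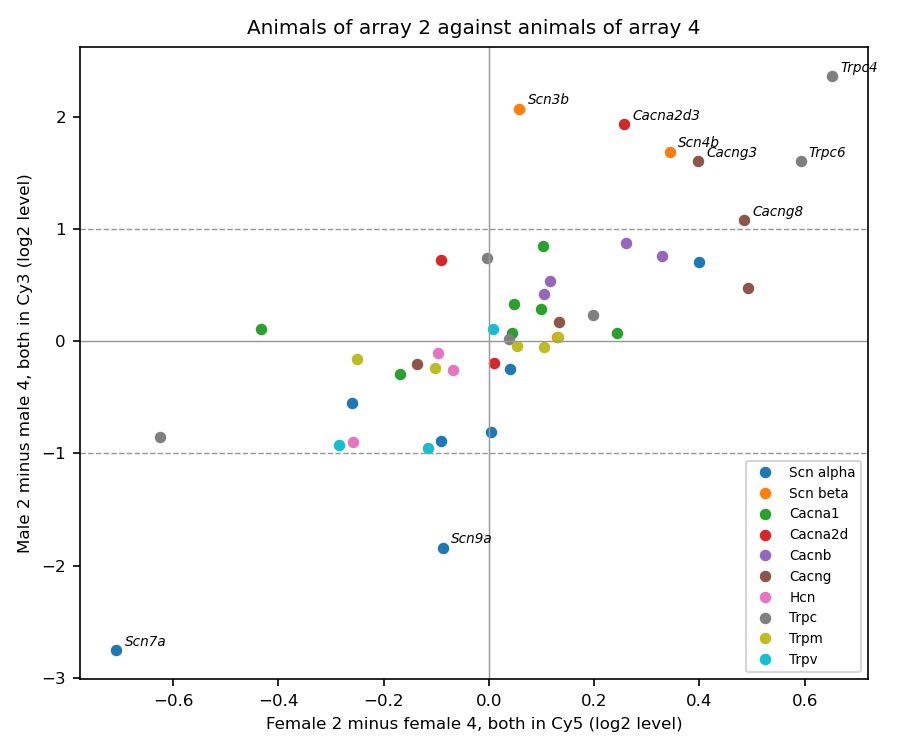
Log2 level of 46 channel genes in female 2 less female 4, both in Cy5 (horizontal axis), against male 2 less male 4, both in Cy3 (vertical axis), coloured by subfamily, with dashed lines at 2-fold between the males. Trpc4 lies at 2.36 on the vertical axis and Scn7a at -2.75, while no gene shown reaches 1 on the horizontal axis.

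The sex comparison therefore turned on which array was left out. Without array 2, 0 of 48 channels had an unadjusted limma p under 0.05, against 8.06% of all genes, and 0 lay more than 0.25 from 0 on the log2 scale, against 12 with all arrays. Of the 48, 37 were closer to 0 without array 2. The shares of all genes closer to 0, or more than 0.25 from 0, were not computed. These counts therefore cannot be read as particular to channels. That fit leaves array 4 as the only array with the female in Cy5 and 1 residual degree of freedom. Without array 4, which leaves array 2 as the only array with the female in Cy5 and 1 residual degree of freedom, 11 of 48 channels (22.9%) had an adjusted p under 0.05, against 7.53% of all genes, and 21 (43.8%) an unadjusted p under 0.05, against 31.1%. Among the 11 were Scn3a, Scn7a, Scn9a, Scn3b, Cacna2d3, Cacng3, Hcn3, Trpc4 and Trpv2, and 6 of the 11 were higher in females. With male 2 alone left out and single channels compared, a fit chosen after the values were seen, 0 of 48 channels passed the adjusted threshold in limma, against 0.0% of all genes. At an unadjusted p under 0.05, which 10.2% of all genes then reached, Scn2b and Cacna1b were the 2 channels called, at 0.16 ± 0.07 and 0.17 ± 0.07 (female over male).

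The dye of a sample was a measurable factor as well. With the ratios turned to female over male, all probes correlated at 0.63 between arrays 1 and 3 and at 0.49 between arrays 2 and 4, but at -0.31 to -0.63 between arrays of opposite orientation, a description across probes that share arrays. In limma, 8 of 49 channels (16.3%, against 13.2% of all genes) had a dye effect at an adjusted p under 0.05. The signal was lower in Cy5 than in Cy3 for Cacna1g, Cacnb3, Cacng2, Trpc1 and Trpc4ap, by -0.53, -0.82, -0.72, -1.04 and -0.54, and higher for Cacna1i, Trpm6 and Trpm7, by 0.49, 0.35 and 0.39. The sign of the ratio followed the dye on all 4 arrays for 21 of 49 channels (42.9%, against 42.0%). GC content of the 60 tested member probes and dye effect had a correlation of -0.01 across probes.

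**Figure D5:**
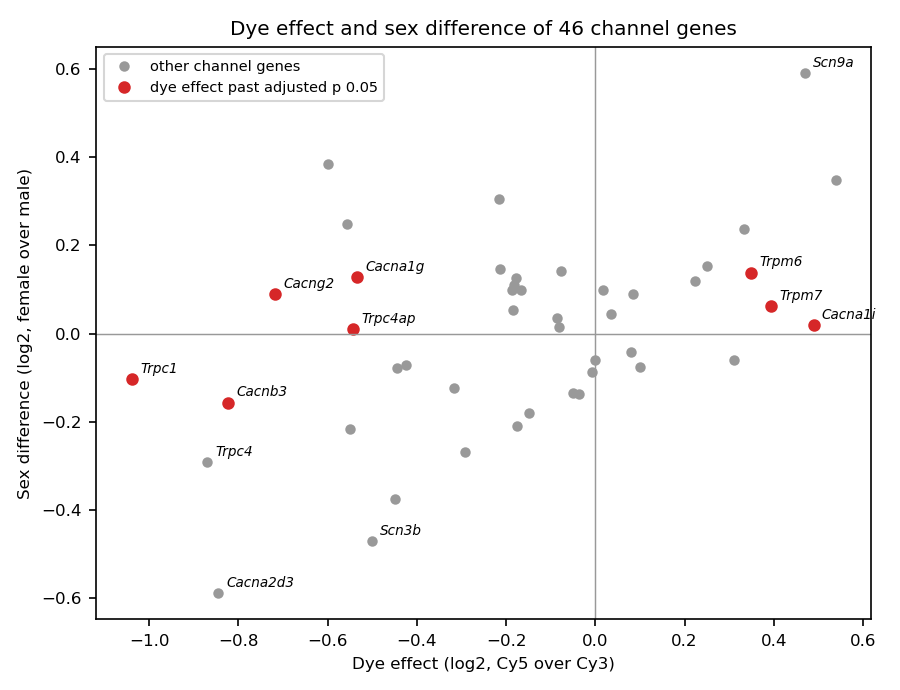
Fitted dye effect (log2, Cy5 over Cy3, horizontal axis) against the fitted sex difference (log2, female over male, vertical axis) of 46 tested channels, in red where the dye effect passed an adjusted p of 0.05. The 8 red genes have sex differences from -0.16 to 0.14, while Scn9a, Scn3b and Cacna2d3 lie farther out.

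For 16 genes the array held a pair of probes, and both passed the filter in 11. The fitted sex ratio had the same sign at both probes in 5 of the 11, and the dye effect in 9 of the 11. The pairs with the same sign of the sex ratio with all 4 arrays were Cacna1c, Cacna1g, Cacna1i, Cacnb1 and Trpc1, and those of opposite sign included Scn7a, Cacnb4, Cacng1, Trpm4 and Trpv1. On a single array the probes of a gene differed by up to 1.73 log2 units, for Scn7a on array 2. Without array 2 the sign was the same at both probes in 4 of the 11, among them Scn7a, Cacnb4 and Cacna1g.

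The channels' partners were looked at from lists of their own, and in limma no gene of these lists passed an adjusted p of 0.05, as none of all genes did. The counts at an unadjusted p under 0.05 stand against 8.52% of all genes with 4 arrays and 8.06% without array 2. Of 16 tested sodium channel partners (anchoring proteins, adhesion molecules and fibroblast growth factor homologous factors), 13 had a ratio below 0, against 43.8% of all genes, and 11 did without array 2, against 42.1%. Their median ratio was -0.11 and went to -0.03 without array 2. One of them, Nrcam, an adhesion molecule of nodes, had an unadjusted limma p under 0.05, at -0.33 ± 0.08 and lower in females on 4 of 4 arrays, and -0.26 ± 0.07 without array 2.

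Of 36 tested calcium channel partners and calcium handling genes, 25 had a ratio below 0 and 18 did without array 2, with medians of -0.16 and 0.00. An unadjusted p under 0.05 was reached by 7, with 2 ratios above 0 and 5 below, and 4 of the 7 reached it without array 2 as well. They were led by Akap5, a kinase anchor (-0.43 ± 0.09, and -0.34 ± 0.07 without array 2), Rrad, a small GTPase that inhibits calcium channels (0.45 ± 0.11 and 0.32 ± 0.08), and Itpr2, a calcium release channel (-0.33 ± 0.09 and -0.39 ± 0.10).

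Among 15 tested HCN partners, 3 had an unadjusted limma p under 0.05, and 2 of them without array 2 as well. Irag1, the renamed Mrvi1, had a ratio of 0.44 ± 0.08 and 0.51 ± 0.07 without array 2. For Vapb, a contact-site protein, the values were -0.48 ± 0.14 and -0.30 ± 0.08, and for Pde4a, which degrades cyclic AMP, -0.27 ± 0.09 and -0.20 ± 0.09. Of 20 tested TRP partners and store-operated entry genes 1 reached that p, Tmem100, a modulator of TRPA1 and TRPV1 (-0.29 ± 0.09), which did not reach it without array 2 (-0.19 ± 0.07). Of 17 other cation channels 3 did, and only Asic2, an acid-sensing channel, did so without array 2 too (-0.30 ± 0.10, and -0.40 ± 0.08 without array 2). Pkd2, polycystin-2, went from -0.31 ± 0.11 to -0.28 ± 0.13, and Cngb1, a cyclic nucleotide-gated subunit, from 0.18 ± 0.06 to 0.19 ± 0.07.

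Male 2 was the highest of the 8 samples for 23 of the 36 calcium genes, 8 of the 16 sodium channel partners, 6 of the 15 HCN partners, 7 of the 20 TRP partners and 0 of the 17 other cation channels, where 25.3% of all genes were. It was the lowest for 6, 1, 4, 3 and 6 genes of these lists in the same order, where 25.2% of all genes were. The summed level of the calcium list was 335481 in male 2 against 135781 to 164919 in the other animals.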

How the data were processed

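Feature Extraction 10.7.3.1 from Agilent quantified the scans, per the submitters' processing notes. Mean, median and local background signals of the spots are intensity values in both channels, per the file headers, as is a log10 ratio of red over green from the scanner software. The log2 values of the table deposited by the authors were matched, within 0.01 for 100% of them, by the log2 of median signal less median background after 1 constant per column was taken off. Each of its columns has a median of 0, and it held 0 columns of other samples. Stray carriage returns within lines of array 4 were taken as line ends. Probe names, rn4 positions and sequences are those of the array files, with symbols updated through accessions for 17320 of 22699 named probes.

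The mean signals went through normexp with the local background median (offset 50), then through loess on each array with no weight on control spots, using limma 3.58.1 and R 4.3.3. Outlier spots were dropped, and repeated spots of the same probe were averaged. A level is the log2 signal of a sample's own channel after loess and Aquantile scaling, given for 1 probe at a time and never compared between probes. Levels include the dye, and so do orders of samples and statements of overlap, except where the dye effect is said to be removed. Probes entered the test when more than 0.5 of their spots stood well above background in every animal of 1 sex or both. The model for the within-array log2 ratio of female over male (lmFit, eBayes) had sex and dye as terms for each of 21995 probes. Adjusted p-values are Benjamini-Hochberg over all of these, with a threshold of 0.05, and the brightest probe stood for each of 14603 genes. The fit was tested on simulated data. Each ratio rests on 4 arrays, whose number limits the precision.

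Sharing an array pairs a female with a male and is the block of the fit. As a check, with the dye removed, the deviations of both animals from the mean of their sex had correlations of 0.57, 0.65, 0.42 and -0.05 on arrays 1 to 4, taken over genes, which are no independent replicates.

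Channels given with all their values were those at an unadjusted p under 0.05, of which there were 0, and the smallest p in each direction in each subfamily, 18 genes in all. Some channels are counted but not reported here by name. Members, marker lists and partner lists were chosen with earlier results of these data known. Alternatives changed the dye term, the block, the background correction, the normalization, the source of the values, the filter, the outlier spots, the choice of probe, the prior and the arrays used. Leaving out male 2 alone was added after the values were seen.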

Additional observations from a re-analysis of the deposited data

Results flagged for a closer look

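In 5 of the 36 groups of 4 animals, 1 animal lay far from the other 3 of its sex relative to the group's range. In 4 of the 5 that animal was male 2. The cut marks about 1 in 20 independent groups of normal values by chance. These groups were not independent, since they repeat the same animals over genes picked by smallest p. The share of groups past the cut over all genes was not computed, so an excess in channels cannot be read from this count. Male 2 was the highest of all samples for 25.3% of all genes and the lowest for 25.2%. Its log2 level was 10.01 for Cacna1c, the L-type pore, where the other males had 9.17 to 9.30. For Cacna2d3 it was 11.67 against 9.39 to 9.73 in the other males, and for Cacnb1 12.77 against 12.16 to 12.24. For Cacng8 it was 8.83 against 7.67 to 7.75. The fifth was female 2, with 8.15 for Cacng8 against 7.62 to 7.66 in the other females, so that both animals of array 2 stood out for this gene. These levels include the dye of each sample, which was Cy3 for males 2 and 4 and females 1 and 3.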

How the results depend on the processing

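Over 16 alternatives, 12 of the 18 channel genes with the smallest p of their subfamily and direction kept the sign of their ratio and 6 changed it under at least 1. The number of channels at an adjusted p under 0.05 stayed at 0 except when 1 array was left out, where it ran from 0 to 11. The number at an unadjusted p under 0.05 was 1 of 49 with the scanner's log ratio, 4 of 40 with the authors' value table, 1 of 60 with no filter on dim probes, 1 with an intensity trend and robust prior, 2 of 48 without male 2 in single channels, and from 0 to 21 with 1 array left out. The count of 21 was without array 4. The number with a dye effect at an adjusted p under 0.05 was 0 with the scanner's log ratio, 5 with the authors' table and from 0 to 24 with 1 array left out. Shares over all genes are given above for the main fit and, for sex differences, without array 2, without array 4 and without male 2. For the other alternatives no such share is given, so an excess in channels cannot be read from those counts. The median ratio over channels ran from -0.04 (authors' table) to 0.07 (without male 2). Without the array as a block it was 0.02, as in the paired fit, and 0 channels passed either threshold, so leaving out the pairing changed no call. Trpm8 reversed to 0.0056 with no background correction and to 0.022 with the scanner's log ratio, and Trpc2 to -0.012 with the authors' table. Without male 2 in single channels, Scn8a reversed to 0.154, Cacna1c to 0.0884, Cacng8 to 0.0948 and Trpc6 to 0.0822. With 1 array left out, Scn8a ran from -0.153 to 0.0102 and Cacna1c from -0.32 to 0.0506. The causes were not tested, except that male 2 or array 2 is absent from the fits named for it. Cy5 signal limits the dim channels. Scn11a, Trpm6 and Cacng8 were farther from 0 with the scanner's log ratio, at 0.62, 0.40 and -0.37.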

Other observations

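Scn2a, the NaV1.2 pore of unmyelinated axons and immature initial segments, lies outside the naming rule because the array files call it Scn2a1. Its log2 levels were 12.72, 11.51, 12.58 and 12.10 in females 1 to 4 and 12.67, 12.23, 13.15 and 12.80 in males 1 to 4. The ratio of female over male was -0.72, -0.57 and -0.70 on arrays 2 to 4 and 0.05 on array 1. The fitted ratio was -0.49 ± 0.12 (limma unadjusted p = 0.0148), which did not pass after adjustment, as 0 of the 14603 genes tested did. Female 2 and male 2 were both below the same-dye animals of their sex, by -0.59 and -0.57, so that here male 2 was the lowest male but not the lowest animal. The gene was named for its relation to the alpha subunits and its values were seen before it was chosen.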
